A study of Mus musculus with 15 samples.

Results

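The genes described here are 33 mouse genes of the interferon response and of antigen presentation by major histocompatibility complex (MHC) class I, taken by symbol from the 42807 gene symbols of the count table. They were measured by RNA sequencing in 15 libraries of C2C12 myotubes, the multinucleate cells formed by a mouse myoblast line when it differentiates. All cultures were differentiated for 6 days and kept for a further 24 h in 1 of 5 conditions, with 3 libraries each. These were no treatment, vehicle (0.1% DMSO), and Jakyak-gamcho-tang (JGT), a hot-water extract of peony and licorice roots, at 20, 100 or 500 µg/mL. The JGT stock held 10 mg/mL in saline with 2% DMSO, so dilution of that stock alone would bring 0.004%, 0.02% and 0.1% DMSO to the 3 doses. All groups are the same cell line. Separate cultures are not stated for the libraries of a group, and the spread behind each p-value may therefore be technical.

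Interferons are secreted proteins that bind receptors on the cell surface and, through JAK kinases, activate STAT transcription factors. Complexes that hold STAT2 and IRF9 bind interferon-stimulated response elements (ISRE), and other STAT dimers bind gamma-activated sites (GAS). The genes so induced encode sensors of viral RNA, antiviral effectors and the proteins that load peptides on MHC class I for display to CD8+ T cells. Muscle fibres show little MHC class I in health and more of it in inflammatory muscle disease.

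Of the 33 genes, 27 had a promoter entry in the RefSeq tables for GRCm38.p6, with 300-base windows from 250 bases before to 50 after a start site. Both strands were searched for the ISRE core (GAAA, any 2 bases, GAAA) and for the GAS form TTCNNNGAA, which reads the same on either strand. In 1 window of these genes an ISRE and a GAS match share bases. The ISRE core was in a window of 13 of the 27 genes (48.1%), against 3.99% of all 27025 genes in the tables and 3.44% of all windows. The GAS form was in 7 of the 27 (25.9%), against 9.55% of all genes and 8.3% of windows. A match is a description of the letters in the window and not a binding site. The 250 bases before the start are printed for a gene that rose with JGT and holds an ISRE core (Stat2, chr10:128270248-128270497, plus strand), one that rose and holds a GAS form (Irf1, chr11:53769764-53770013, plus strand), and 2 that were not called and hold the ISRE core (Isg15, chr4:156200819-156201068, minus strand, and B2m, chr2:122147437-122147686, plus strand). Each is written 5′ to 3′ on the gene's strand, with the matches in capitals.
Stat2: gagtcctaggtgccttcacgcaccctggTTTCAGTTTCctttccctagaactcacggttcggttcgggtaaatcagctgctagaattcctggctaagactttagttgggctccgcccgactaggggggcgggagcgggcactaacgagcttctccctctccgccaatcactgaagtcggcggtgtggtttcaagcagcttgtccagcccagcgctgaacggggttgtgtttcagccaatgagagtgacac
Irf1: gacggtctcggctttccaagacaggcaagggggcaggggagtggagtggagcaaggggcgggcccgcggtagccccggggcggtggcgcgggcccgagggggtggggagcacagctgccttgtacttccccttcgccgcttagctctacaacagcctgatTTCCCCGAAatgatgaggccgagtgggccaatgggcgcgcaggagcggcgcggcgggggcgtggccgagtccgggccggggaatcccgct
Isg15: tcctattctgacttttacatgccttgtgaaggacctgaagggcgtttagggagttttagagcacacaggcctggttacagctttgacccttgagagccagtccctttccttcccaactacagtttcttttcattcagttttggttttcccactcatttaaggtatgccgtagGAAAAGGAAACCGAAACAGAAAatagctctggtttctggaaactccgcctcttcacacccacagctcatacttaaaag
B2m: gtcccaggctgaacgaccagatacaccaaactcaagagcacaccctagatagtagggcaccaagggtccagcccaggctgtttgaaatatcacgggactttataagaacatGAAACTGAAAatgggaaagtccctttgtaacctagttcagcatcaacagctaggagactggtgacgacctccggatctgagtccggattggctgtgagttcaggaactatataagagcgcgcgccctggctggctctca
In Stat2 the core lies on the opposite strand, starting at position -222 from the start site. The 3 overlapping cores of Isg15 start at -78, -72 and -66, the core of B2m at -139 and the GAS form of Irf1 at -90.

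Library totals ran from 26012844 to 36854199 counts. On the first principal component, which held 32.27% of the variance, the JGT 500 libraries stood at 37.22, 17.48 and 39.43, and the other 12 did not exceed -0.9841. JGT 500 replicate 2 stood apart from its 2 partners, at -25.72 against 4.647 and 8.941 on the second component, and results that rest on it are given with and without it. Every sample title, control and JGT alike, begins with Batch1. The control libraries carry another series of sample codes than the JGT libraries, so JGT and code series cannot be told apart in a comparison with vehicle. Comparisons between doses stay within 1 code series. Summed markers of myoblasts and reserve cells were 708 to 710 CPM (counts relative to TMM-adjusted library size) in vehicle and 538 to 557 CPM at JGT 500. Of these 12 markers 7 were lower (58.3%) and 1 higher (8.33%), where 16.8% of all genes were lower and 16.5% higher. The summed myotube markers overlapped (20190 to 21490 against 19890 to 21400 CPM), but single ones moved in both directions. Of 11 myotube markers 4 were higher (36.4%) and 3 lower (27.3%). The part of these cell types in the results below was not tested. In bulk RNA, fewer cells of a type and less RNA per cell cannot be told apart. Markers of immune cells summed to 1.76 to 2.58 CPM in vehicle and 1.27 to 1.88 CPM at JGT 500, with 3 to 5 of the 10 listed genes at 0 in each library. Of these 10 genes 3 were high enough to test, and 0 of them were called at JGT 500 against vehicle, where 33.3% of all genes were. The leukocyte marker Ptprc had at most 1 count in any library and the lymphocyte gene Nkg7 had 0 in all.

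The interferon genes themselves were barely detected. Of 13 listed genes for type I, II and III interferons, 9 had 0 counts in every library and none exceeded 2 counts in any library. A count of 0 over the 3 vehicle libraries allows up to 3 counts, or 0.0352 CPM, and over the 3 JGT 500 libraries 0.0325 CPM, for counting error only.

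The 33 genes spanned a wide range of levels in vehicle myotubes. Per kilobase of exon, B2m, the invariant light chain of MHC class I, was highest at 227 CPM per kb, followed by the peptide-loading chaperone gene Tapbp at 25.3 CPM per kb. The class I heavy chain gene H2-D1 and the interferon-induced Ifi35 both stood at 7.11 CPM per kb, with H2-K1 at 5.78, Stat2 at 5.67 and Irf1 at 5.82 CPM per kb. Oas1a, Rsad2 and Usp18, all classical interferon targets, were too low to test. Oas1a, an oligoadenylate synthetase that activates RNase L, had 2, 0, 3, 1 and 1 counts summed over the 3 libraries of the non-treated, vehicle, JGT 20, JGT 100 and JGT 500 groups. Rsad2, which encodes the antiviral enzyme viperin, had 9, 3, 6, 7 and 3 counts, and Usp18, which removes ISG15 from proteins and dampens receptor signalling, had 6, 7, 3, 0 and 4. The other 30 genes were tested.

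**Figure D1:**
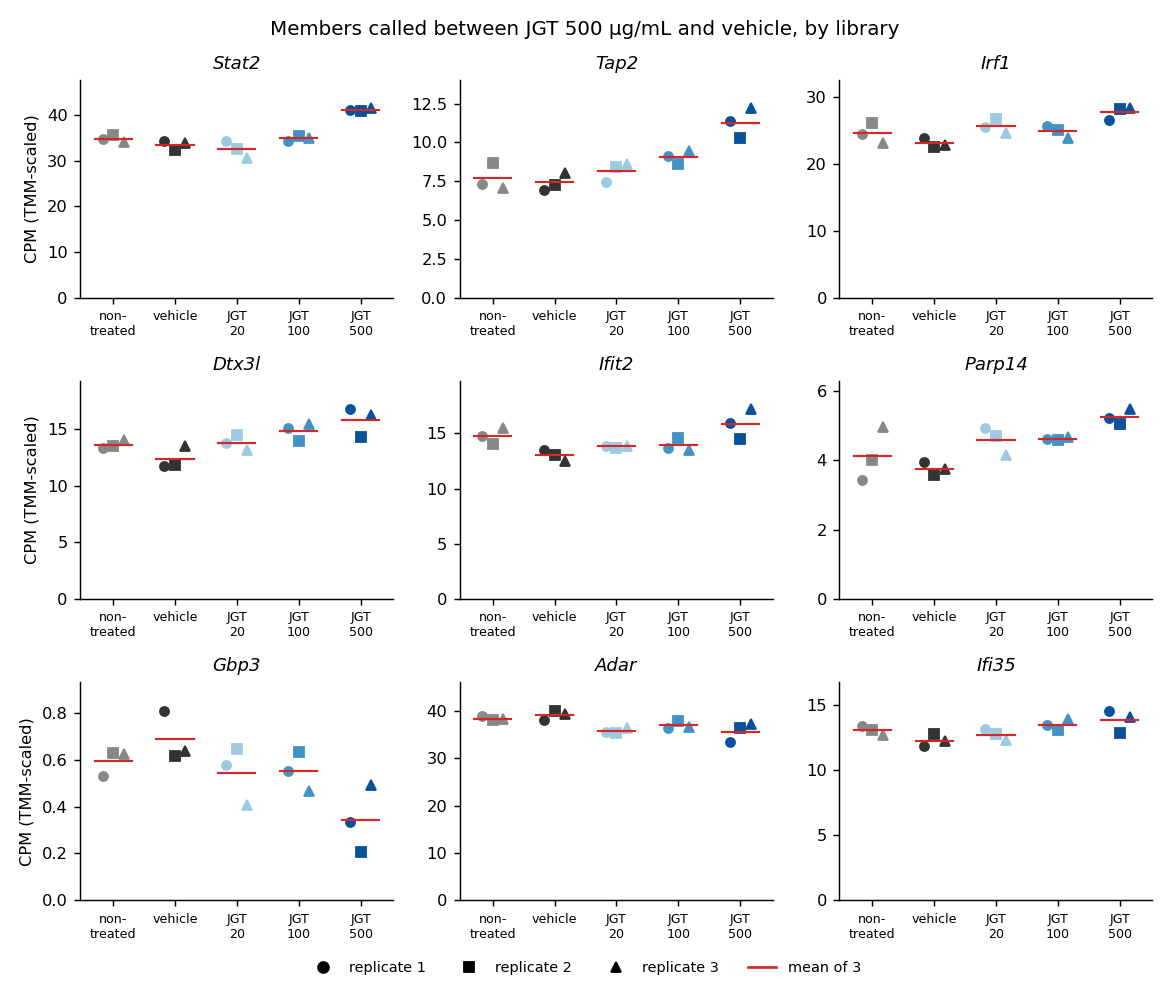
Levels by library of the 9 genes called at JGT 500 against vehicle, with the CPM of each library as a point and the group mean as a bar. The JGT 500 libraries of Stat2 sit between 41.0 and 41.6 CPM, above all other libraries, and those of Gbp3 between 0.205 and 0.494 CPM.

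At JGT 500, 7 of the 30 tested genes rose and 2 fell against vehicle (edgeR quasi-likelihood test, Benjamini-Hochberg adjusted p below 0.05 over 14461 genes). The 9 called genes are 30.0% of those tested, against 33.3% of all genes, so the share is near the background. By direction, 23.3% rose against 16.5% of all genes, and 6.67% fell against 16.8%. The median log2 change of the 30 was 0.08, against 0.01 for all tested genes, with 18 of 30 above 0. Stat2, Tap2, Irf1, Dtx3l, Ifit2, Parp14 and Ifi35 rose, and Gbp3 and Adar fell. Libraries of the 2 groups did not overlap for 10 genes that were higher and 4 that were lower, where 19.8% and 20.3% of all genes were so separated. The 7 that rose changed by 1.13-fold to 1.52-fold. Of these 7 genes 5 had a promoter entry, 1 with the ISRE core (Stat2) and 3 with the GAS form (Irf1, Ifit2 and Ifi35). Both genes that fell had an entry, 1 with the ISRE core (Gbp3) and 1 with the GAS form (Adar). Of the 21 genes not called 18 had an entry, 9 with the ISRE core and 2 with the GAS form. Whether a motif goes with a call was not tested. The called genes lie on several chromosomes in the GENCODE annotation of GRCm38, among them Stat2 at chr10:128270559-128292849, Tap2 at chr17:34203527-34216321, Dtx3l at chr16:35926511-35939151 and Gbp3 at chr3:142560026-142573209.

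Among the transcription factors, 2 of 4 rose. Stat2, the STAT specific to type I and III interferon signalling, stood at 34.4, 32.5 and 33.9 CPM in vehicle, 34.3, 32.6 and 30.6 at JGT 20, 34.4, 35.5 and 35.1 at JGT 100 and 41.1, 41.0 and 41.6 at JGT 500. All 3 JGT 500 libraries were above every other library. Its mean went from 33.6 ± 0.953 CPM (SD, n = 3) to 41.2 ± 0.322 CPM, a log2 change of 0.30 with a standard error of 0.0443 and an adjusted p of 3.15e-05 by edgeR. Irf1, a factor induced by interferon gamma that drives class I genes, stood at 23.9, 22.6 and 22.8 CPM in vehicle and at 26.6, 28.3 and 28.4 CPM at JGT 500. The groups did not overlap, with a log2 change of 0.26 (SE 0.0545, edgeR adjusted p = 0.000889). Irf7, the master regulator of interferon alpha genes, was 1.35, 1.12 and 1.52 CPM in vehicle and 1.57, 1.79 and 1.80 CPM at JGT 500, and its log2 change of 0.36 was not called (adjusted p = 0.0973). Irf9, the DNA-binding partner of STAT2, had a log2 change of -0.16 (adjusted p = 0.185).

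In the ADP-ribosylation group, 2 of 3 genes rose. Dtx3l encodes a ubiquitin ligase that pairs with PARP9, and stood at 11.7, 11.8 and 13.5 CPM in vehicle, 15.1, 13.96 and 15.4 at JGT 100 and 16.8, 14.3 and 16.2 at JGT 500. At both doses all libraries were above vehicle, and at JGT 500 the log2 change was 0.35 (SE 0.0727, edgeR adjusted p = 0.000928). Its neighbour Parp9, on the opposite strand of chromosome 16, was 9.42 ± 0.405 CPM in vehicle and 10.0 ± 0.898 CPM at JGT 500, a log2 change of 0.09 that was not called (adjusted p = 0.387). The 2 genes share 458 exon bases, and neither gene's counts were whole in any of the 15 libraries. In each library their expected counts add to a whole number, as with 281.04 for Parp9 and 375.96 for Dtx3l in non-treated replicate 1. Reads were thus divided between the 2 genes, and the effect of that division on their contrast was not tested. Parp14, a mono-ADP-ribosyltransferase, was 3.96, 3.59 and 3.74 CPM in vehicle and 5.21, 5.04 and 5.47 CPM at JGT 500. These groups were fully separated, with a log2 change of 0.47 (SE 0.114, edgeR adjusted p = 0.00312).

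Of the 6 genes of MHC class I presentation, 1 rose. Tap2 is a subunit of the transporter that carries peptides into the endoplasmic reticulum. It was 6.97, 7.25 and 8.06 CPM in vehicle, 7.46, 8.41 and 8.63 at JGT 20, 9.14, 8.60 and 9.46 at JGT 100 and 11.4, 10.3 and 12.2 at JGT 500. The JGT 500 libraries were above all others, and the change, 1.52-fold, was the largest among the 7 genes that rose (log2 0.60, SE 0.0935, edgeR adjusted p = 4.77e-05). Tap2 shares 533 and 165 exon bases with 2 antisense genes, and its counts were not whole in any library. Tap1, the other subunit, had a log2 change of 0.34 (95% interval -0.23 to 0.91) and was not called. Tapbp, H2-K1 and H2-D1 had log2 changes of -0.02, -0.02 and 0.06, with intervals of -0.11 to 0.07, -0.18 to 0.14 and -0.07 to 0.18. Against the non-treated group Tapbp was called higher at JGT 500, by 0.14 (edgeR adjusted p = 0.0156), where 31.8% of all genes were called.

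B2m depended on 1 library. It was 177, 215 and 195 CPM in vehicle and 144, 195 and 113 CPM at JGT 500, where replicate 2 lay within the vehicle range and the other two below it. With all libraries its log2 change was -0.37 (SE 0.180, edgeR adjusted p = 0.141), and without JGT 500 replicate 2 it was -0.61 (adjusted p = 0.00906). Xaf1, a proapoptotic interferon target, was 8.25, 9.10 and 9.24 CPM in vehicle and 7.04, 9.26 and 7.16 CPM at JGT 500, where replicate 2 was above all vehicle libraries and the other two below them. Its log2 change was -0.17 (adjusted p = 0.170) with all libraries and -0.33 (adjusted p = 0.00430) without that replicate. Without it Ifih1 was also called lower and Gbp3 lost its call, which made 11 of 30 called, while the share of all genes called rose from 33.3% to 43.3%.

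**Figure D2:**
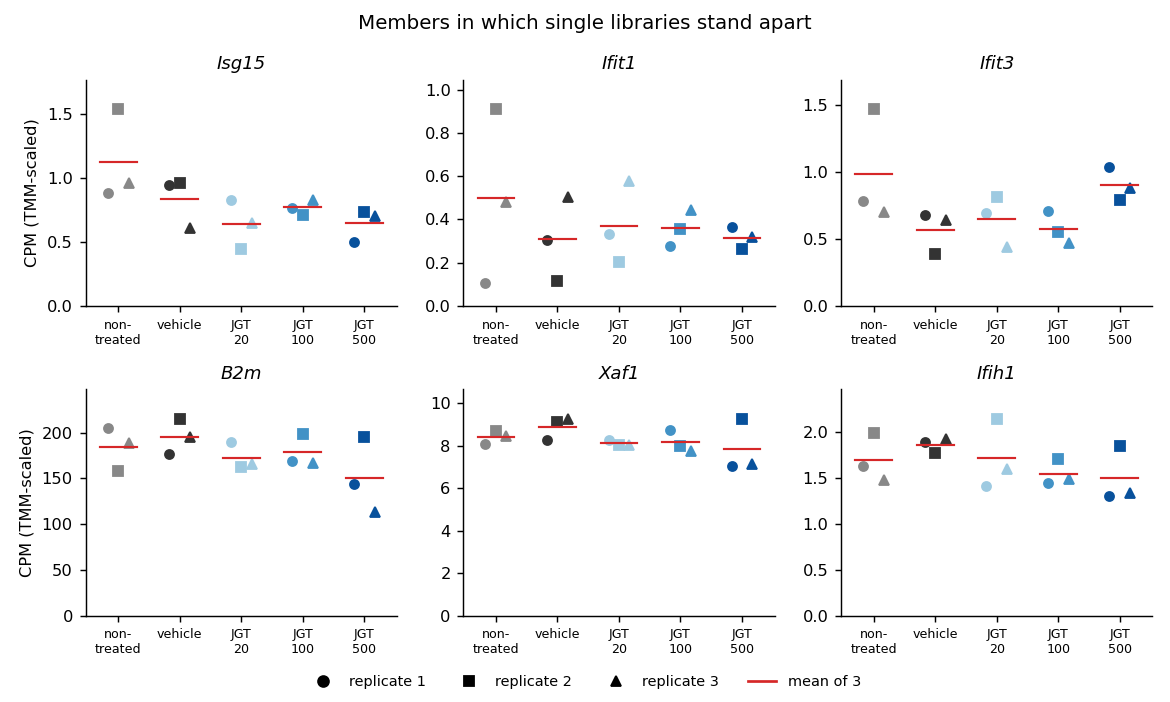
CPM by library of Isg15, Ifit1, Ifit3, B2m, Xaf1 and Ifih1, the genes in which single libraries stand away from their group. Non-treated replicate 2 is highest for Isg15 (1.54 CPM), Ifit1 (0.909 CPM) and Ifit3 (1.47 CPM), and JGT 500 replicate 2 lies above its 2 partners for B2m.

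Among the 10 tested antiviral effectors, 2 rose and 1 fell. Ifit2, an antiviral protein that restrains translation, was 13.5, 13.0 and 12.5 CPM in vehicle and 16.0, 14.5 and 17.2 CPM at JGT 500. The groups were separated, with a log2 change of 0.28 (SE 0.0669, edgeR adjusted p = 0.00262), but the non-treated libraries, at 14.8, 14.1 and 15.5 CPM, overlapped those at JGT 500, and against them the change was 0.10 (adjusted p = 0.263). Ifi35, an interferon-induced protein, was 11.8, 12.8 and 12.2 CPM in vehicle and 14.6, 12.9 and 14.1 CPM at JGT 500 (log2 change 0.17, SE 0.0631, edgeR adjusted p = 0.0388), and its call was lost in 8 of 14 alternative analyses. Gbp3, a guanylate-binding GTPase of antimicrobial defence, fell from 0.811, 0.617 and 0.640 CPM to 0.334, 0.205 and 0.494 CPM. All 3 JGT 500 values were below vehicle, a log2 change of -1.03 (SE 0.302, edgeR adjusted p = 0.0117), but only 59 and 31 counts lie behind the groups. Without JGT 500 replicate 2 the change was -0.75 (adjusted p = 0.0654), and without vehicle replicate 1 it was -0.90 (adjusted p = 0.0566).

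The remaining effectors were not called. Ifit3, whose human counterpart stabilises IFIT1 on RNA, was 0.676, 0.386 and 0.640 CPM in vehicle and 1.03, 0.791 and 0.882 CPM at JGT 500, a log2 change of 0.64 with an interval of -0.0046 to 1.29 (adjusted p = 0.116). Against the non-treated group its change was -0.13, in a group whose replicate 2 stood at 1.47 CPM. Oasl2 was 2.27, 2.20 and 2.46 CPM in vehicle and 2.10, 1.85 and 1.34 CPM at JGT 500, with no overlap and a log2 change of -0.38 (adjusted p = 0.0781). Rtp4, Bst2, Gbp2 and Ifit1 had log2 changes of 0.30, -0.15, 0.10 and -0.01. Isg15, the ubiquitin-like modifier, was 0.839 ± 0.202 CPM in vehicle and 0.646 ± 0.127 CPM at JGT 500 (log2 change -0.36, adjusted p = 0.349), whereas against the non-treated group it was called at -0.80 (adjusted p = 0.0279), with replicate 2 of that group at 1.54 CPM.

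Of the 6 genes that sense or edit RNA, 1 fell. Adar, which edits adenosine to inosine in double-stranded RNA, was 38.1, 40.1 and 39.3 CPM in vehicle and 33.4, 36.4 and 37.2 CPM at JGT 500. The groups were separated, by a log2 change of -0.14 (SE 0.0438, edgeR adjusted p = 0.0220), although JGT 20 was as low, at 35.5, 35.5 and 36.5 CPM, and JGT 500 against JGT 20 gave -0.01 (adjusted p = 0.938). Adar shares 1365 exon bases with Chrnb2 on the opposite strand, and its call was lost in 5 of 14 alternatives. The helicase genes Ddx58 (RIG-I), Ifih1 (MDA5) and Dhx58 (LGP2) had log2 changes of 0.10, -0.31 and 0.22, and Trim25 and Eif2ak2 (PKR) changes of 0.03 and 0.03, none called.

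**Figure D3:**
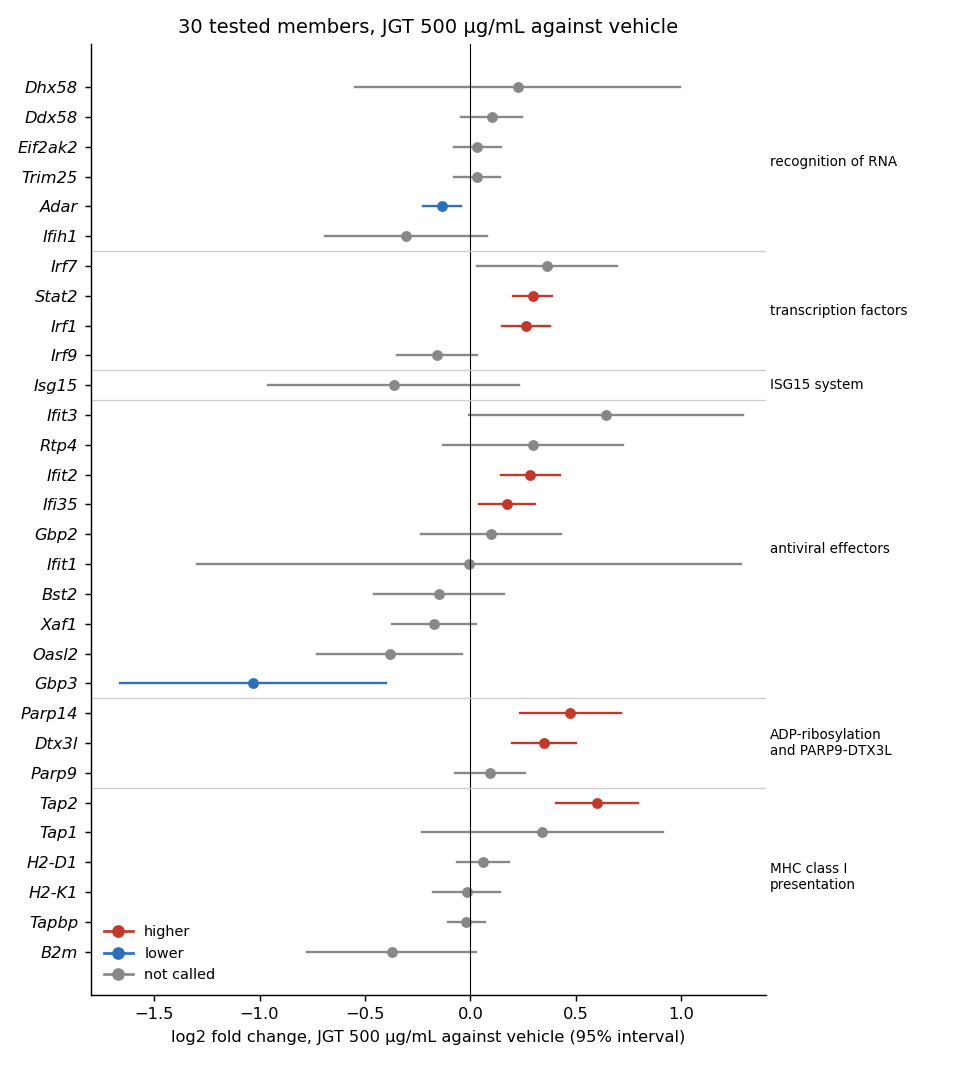
Log2 change at JGT 500 against vehicle for the 30 tested genes, each with its 95% interval, grouped by role. Intervals of 17 genes have a half-width below 0.25, and the widest is 1.29.

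Few of these genes were called at the lower doses. At JGT 20 against vehicle 0 of 30 were called by edgeR, where 0.325% of all genes were (0.173% higher and 0.152% lower). DESeq2 and limma-voom also called 0. By edgeR 5 had an unadjusted p under 0.05, with adjusted p of 0.285 to 0.448. Of these, Irf1, Parp9, Parp14 and Dtx3l were higher, with log2 changes of 0.15, 0.22, 0.29 and 0.16, and Adar was lower at -0.13. At JGT 100 against vehicle Dtx3l alone was called, higher by 0.26 on the log2 scale (adjusted p = 0.0433), against 4.31% of all genes (2.09% higher and 2.22% lower), and the call was lost by DESeq2 and in 5 of 6 analyses leaving out 1 library. It stayed without vehicle replicate 3. No gene had a lower value at an unadjusted p under 0.05 there. The vehicle itself, against no treatment, called 0 of 30 by edgeR (background 1.31%, with 0.553% higher and 0.754% lower), with 3 at an unadjusted p under 0.05. DESeq2 called Tapbp alone there, and limma-voom called 0.

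Between doses the code series is shared, but dilution of the stock alone would bring 0.004% DMSO to JGT 20 and 0.1% to JGT 500. If DMSO was not evened out, dose and DMSO cannot be told apart. JGT 500 against JGT 20 called 4 of 30 genes (13.3%), all higher, against 23.3% of all genes (11.1% higher and 12.2% lower). They were Stat2 (log2 0.34, adjusted p = 6.89e-06), Tap2 (0.47, adjusted p = 0.000716), Irf7 (0.56, adjusted p = 0.0142) and Ifit2 (0.20, adjusted p = 0.0330), and DESeq2 called only Stat2 and Tap2. Ifit2 lost that call in 5 of 6 analyses leaving out 1 library, all but the one without JGT 500 replicate 2, and Irf7 lost it without JGT 20 replicate 2. Oasl2 was called lower without JGT 500 replicate 1 or 2, and Gbp3 without replicate 3. Irf1, Dtx3l, Parp14 and Ifi35, called higher against vehicle, were not called here. Their log2 changes were 0.11, 0.19, 0.19 and 0.12 (edgeR adjusted p = 0.14, 0.0606, 0.240 and 0.182). Dtx3l was called higher with library totals and without JGT 500 replicate 2. By edgeR, DESeq2 and limma-voom 0 were called lower, with 3 lower at an unadjusted p under 0.05 by edgeR. JGT 100 against JGT 20 called 0 of 30, against 0.429% of all genes (0.297% higher and 0.131% lower), with 1 at an unadjusted p under 0.05 and 0 by DESeq2 or limma-voom.

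**Figure D4:**
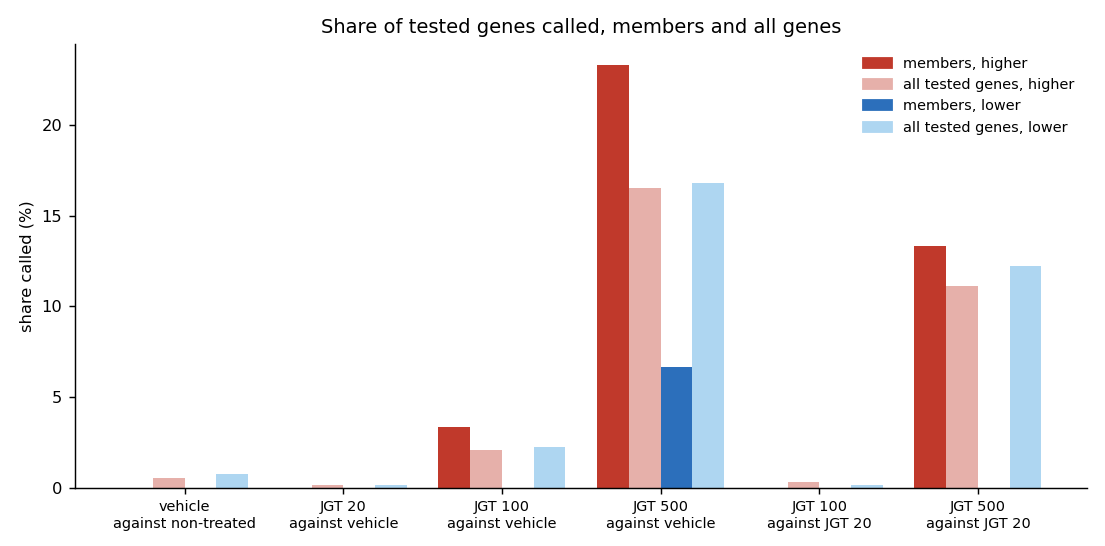
Percent of tested genes called in each comparison, higher and lower, for the 30 genes beside all 14461 tested genes. At JGT 500 against vehicle 23.3% of the 30 were higher and 6.67% lower, against 16.5% and 16.8% of all genes.

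Other genes of these pathways also moved in both directions at JGT 500 against vehicle, where 16.5% of all genes rose and 16.8% fell. Of 17 tested genes leading from nucleic acid sensing to interferon 2 rose, the kinase gene Ikbke (0.35) and the RIG-I ligase gene Rnf135 (0.46), and 2 fell, Tmem173 (STING, -0.19) and Zc3hav1 (-0.13), which is 23.5% called against 33.3% of all genes. Of 19 other class I pathway genes 4 rose and 3 fell, with H2-T23 (0.45) and Tapbpl (0.34) higher and Erap1 (-0.20) and H2-Q4 (-0.46) lower, which is 36.8% called. Of 43 other interferon targets 10 rose and 3 fell, which is 30.2% called, with a median log2 change of -0.01. Without JGT 500 replicate 2, where the share of all genes called was 43.3%, the counts that rose and fell were 3 and 2 for the sensing genes, 7 and 2 for the class I genes and 10 and 5 for the other targets.

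In those 43 the smallest p-values belonged to Slfn9, Gbp9, Gbp4 and Gbp6. Slfn9 fell from 2.37, 2.47 and 2.16 CPM in vehicle to 0.801, 0.674 and 0.776 CPM at JGT 500, a log2 change of -1.63. Gbp9, Gbp6 and Gbp4, which encode guanylate-binding proteins as Gbp3 does, rose. Gbp9 went from 0.656 ± 0.0468 CPM to 1.94 ± 0.363 CPM at JGT 100 and 1.63 ± 0.214 CPM at JGT 500, with edgeR adjusted p of 3.69e-05 and 3.35e-05. Gbp6 went from 0.407 ± 0.213 CPM to 1.27 ± 0.155 and 1.26 ± 0.154 CPM (adjusted p = 0.00318 and 0.000479), with 14 of 15 values not whole. Gbp4 had 5 counts over the vehicle libraries, 43 at JGT 100 and 61 at JGT 500 (adjusted p = 0.0256 and 0.000326).

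**Figure D5:**
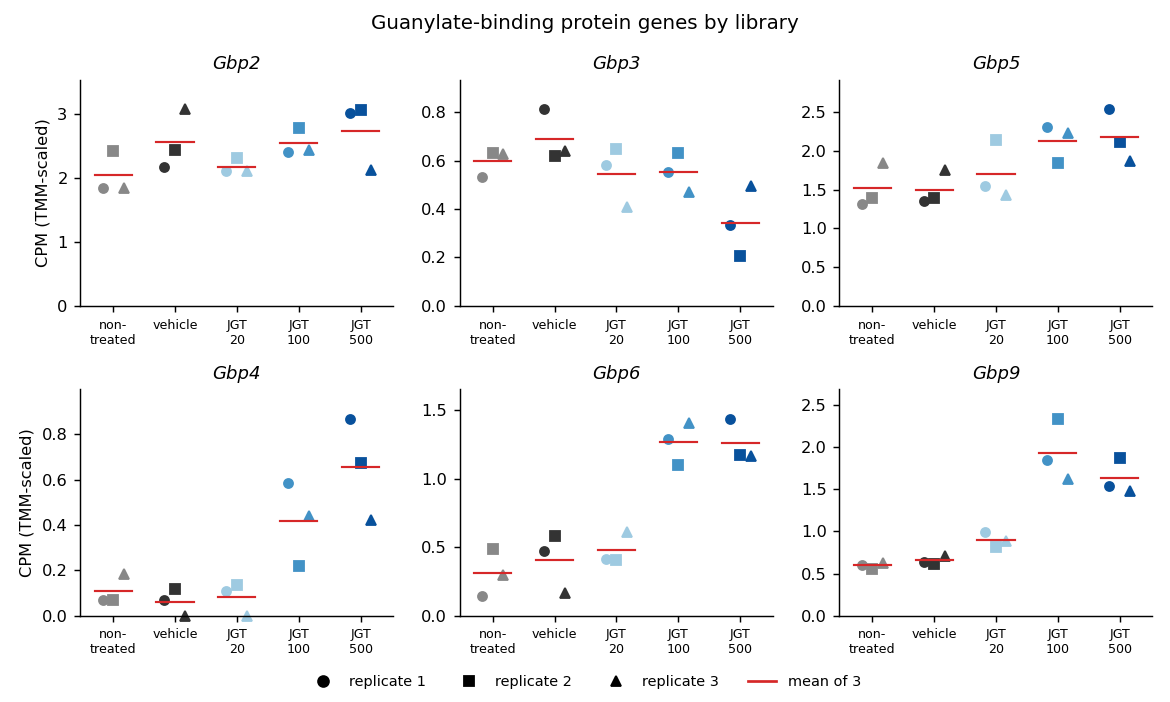
CPM by library of the guanylate-binding genes Gbp2, Gbp3, Gbp5, Gbp4, Gbp6 and Gbp9 in the 5 groups, points for libraries and bars for group means. Gbp7, Gbp8 and Gbp11 are not drawn. Gbp4, Gbp6 and Gbp9 are higher at JGT 100 and JGT 500 than in vehicle, while Gbp3 is lower at JGT 500.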

How the data were processed

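RNA sequencing was done on 15 libraries with a directional mRNA kit and paired-end reads, per the labels' protocols. The submitters' processing notes name the genome build GRCm38 (mm10) and the tools RSEM 1.3.3, STAR 2.7.3a, Trim Galore 0.6.5 and FastQC 0.11.9. Neither the annotation nor the strand option is given in the sources used here, so overlapping genes can share counts. The authors deposited expected counts per gene symbol, not normalized, which were rounded to whole numbers here (9.34% of values were not whole, within 0.005).

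Genes were filtered with filterByExpr, leaving 14461, and scaled by TMM (0.988 to 1.02). One edgeR 4.0.16 quasi-likelihood fit (R 4.3.3, robust) held all 15 libraries with a mean per group and 10 residual degrees of freedom, and 6 comparisons were tested two-sided, each with Benjamini-Hochberg adjustment over all genes and a threshold of 0.05. Intervals are 95%. DESeq2 1.42.0, limma 3.58.1 (voom), other scalings, no filter, 2 groups only, the non-treated control, a replicate block and leaving out each library were alternatives. The mean chi-square per gene between libraries of a group was 2.00 to 34.8, so none was treated as a duplicate. Named in full are the 14 tested genes with the smallest p at JGT 500 against vehicle, and of each context list the 4 with the smallest p, or all called where 5 or fewer were. The genes and lists were chosen with earlier results of these data known. The list of receptor and JAK-STAT genes is not reported here. The fit was tested on simulated data.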

Additional observations from a re-analysis of the deposited data

How the results depend on the processing

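Over 14 alternatives for JGT 500 against vehicle, Stat2, Tap2, Irf1, Dtx3l and Parp14 kept their calls and direction in all, with log2 changes of 0.24 to 0.31, 0.54 to 0.66, 0.17 to 0.29, 0.21 to 0.41 and 0.34 to 0.51. Ifit2 lost its call with the non-treated control, Gbp3 in 2 alternatives, Adar in 5 and Ifi35 in 8, and Ifit3 reversed to -0.13 with the non-treated control. With that control Isg15 was called lower and Tapbp higher, where 31.8% of all genes were called. All 14 alternatives set JGT against control libraries of the other code series. At JGT 500 against JGT 20, within 1 code series, Stat2 and Tap2 were called and Irf1, Dtx3l and Parp14 were not. At JGT 500 against vehicle the count of genes called lower was 1 with only the 2 groups fitted and 1 to 4 when single libraries were left out. At JGT 100 against vehicle the count called higher was 0 by DESeq2, 0 with library totals, 0 with the non-treated control, 2 with only the 2 groups (Dtx3l and Tap2) and 0 to 1 when single libraries were left out. Vehicle against non-treated called 1 higher by DESeq2 and 1 with only the 2 groups, Tapbp in both. JGT 500 against JGT 20 called 2 higher by DESeq2 and 2 with only the 2 groups, 2 to 5 when single libraries were left out, and 0 to 1 lower. The cause of these shifts was not tested. Deviations from the group mean correlated at -0.32 to 0.12 over 30 pairs of libraries with the same replicate number, 4 over 0.1. For replicates 1, 2 and 3, JGT 500 and JGT 100 gave 0.07, 0.11 and 0.12, and JGT 500 and JGT 20 gave -0.18, -0.21 and 0.04. With such mixed values the check cannot decide whether the numbers pair the libraries. With the replicate block, JGT 500 against vehicle called 9 genes, 7 higher and 2 lower, all shared with the fit without it, JGT 100 against vehicle 1 and JGT 500 against JGT 20 4. The list counts without JGT 500 replicate 2 were added after seeing the data. For 17 of the 30 tested genes the 95% interval at JGT 500 against vehicle reached under 0.25 to either side on the log2 scale, and in the others, which include the abundant B2m with its spread between libraries, changes of that size were not detectable.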

Other observations

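The mouse guanylate-binding genes lie in 2 clusters. Those called higher than vehicle at both JGT 100 and JGT 500 in these data, Gbp4, Gbp6, Gbp8 and Gbp9, are all on chromosome 5. Gbp8 was singled out after its values were seen. It had 15 counts over the vehicle libraries, 66 at JGT 100 (edgeR adjusted p = 0.0166) and 81 at JGT 500 (adjusted p = 0.000216). Gbp11, also on chromosome 5, was too low to test. On chromosome 3, Gbp5 rose at JGT 500 (log2 change 0.53, edgeR adjusted p = 0.0336). At JGT 100 its log2 change was similar, 0.50, but not called (edgeR adjusted p = 0.154). At JGT 500 Gbp3 fell, and Gbp2 and Gbp7 had log2 changes of 0.10 and -0.09 with adjusted p of 0.677 and 0.871. Whether the clusters differ was not tested.

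Non-treated replicate 2 held the highest level among the 15 libraries for 4 of the 33 genes, Isg15, Ifit1, Ifit3 and Rsad2, the last at 0.210 CPM. These values rest on 44, 26, 42 and 6 counts, and Rsad2 was too low to test. JGT 500 replicate 3 held the highest level for 8 of the 33 and the lowest, ties included, for 5.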
